A study of Rattus norvegicus with 8 samples.

Results

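The genes described here are the potassium channel genes of the rat, taken as every gene whose symbol starts with Kcn. The platform annotation gave exactly 1 such symbol for 85 probe sets (the groups of probes that report 1 transcript), which covered 83 genes of the 14497 genes named in this way. Kcnip1 and Kcnip2 had 2 probe sets each, and the one with the higher mean over all 8 arrays stood for the gene. A further probe set carried several symbols, a Kcn gene among them, and was not used. By their prefixes the genes comprised 35 voltage-gated pore subunits, 15 inward rectifiers, 11 2-pore channels, 6 calcium- or sodium-activated channels and 16 auxiliary subunits.

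RNA was taken from left ventricles of late-pregnant female rats (LP in the design text), and all of the hearts had undergone ischemia, a stop of the blood supply, and then reperfusion. In 5 samples reperfusion came with a single bolus of 5 mg/kg of the treatment labelled ILPD, and in 3 samples with vehicle, labelled placebo. The design text writes ITLD and the series title Intralipid, an intravenous fat emulsion; that all these names stand for 1 treatment is assumed. The sources used here give no strain, age or interval from reperfusion to sampling, and a group free of ischemia was not analysed here. The labels do not state that each sample was a separate animal, so the p-values below rest on a spread among samples that could be technical in part.

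Values were log2 signals of Affymetrix arrays, with array medians from 7.16 to 7.20 in ILPD and from 7.08 to 7.14 in placebo. Precision is limited by having 8 arrays. All 10 markers of ventricular muscle were measured, with signals at or above the 98.6th percentile of all probe sets. The atrial light chain gene Myl7 was present too, with log2 values from 10.003 to 11.90 in ILPD and from 10.83 to 13.18 in placebo. It was 1 of 5 measured atrial markers, of which only Sln had a higher mean in ILPD (9.07 against 8.55). Mean log2 levels of the 5 ran from 9.35 to 10.11 in ILPD and from 9.70 to 10.14 in placebo, so the ranges overlapped. In whole tissue, fewer cells of a type and less RNA per cell cannot be told apart.

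Potassium channels let potassium leave or enter a cell and thereby set its resting voltage and end each action potential. In the rodent ventricle a fast transient outward current does much of the early repolarization, inward rectifiers hold the resting voltage, and channels closed by ATP open when the energy supply fails, as it does in ischemia. Arteries of the heart use calcium-activated, inward rectifier and ATP-sensitive channels to set their tone, and white blood cells use a small set of their own.

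Of the 83 genes, 15 were bright, which here means a mean over 8 arrays within the highest 25% of all 28826 probe sets; that was 18.1% of the potassium channel genes, against 33.9% of all named genes. A probe set's signal depends on its probes as well as on its transcript, so the bands describe signals and do not rank transcripts. The bright genes were Kcnip2, Kcnj3, Kcnk3, Kcng2, Kcnq1, Kcnj11, Kcnd2, Kcna2, Kcnh2, Kcnj2, Kcnj5, Kcnj8, Kcnj12, Kcnd3 and Kcnmb1. They hold 6 of the 15 inward rectifiers and 6 of the 35 voltage-gated pores, but 1 of the 11 2-pore channels and 0 of the 6 calcium- or sodium-activated channels. The last gene inside the band, Kcnmb1, stood at the 75.9th percentile and the first outside it, Kcng1, a silent voltage-gated subunit, at the 74.5th. A further 34 genes lay in the middle, and 34 were dim, at or below the 40th percentile, with mean log2 values from 6.0 to 6.75. No measure of detection was used here, so a dim gene is not called absent. The dim group included Kcnma1, the pore of the large calcium-activated channel, whose smooth muscle partner Kcnmb1 was bright.

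Few potassium channel genes differed between ILPD and placebo hearts. In limma's test across all probe sets, 2 of 83 passed an adjusted p of 0.05, and both rose: Kcnj8, a pore of the ATP-sensitive channel, and Kcnab2, a beta subunit of voltage-gated channels. None fell by limma's test. At an unadjusted p under 0.05, 6 were higher and 7 lower, against 11.5% and 9.39% of all named genes. All 7 lower genes were among the 15 bright ones, and at that threshold 1138 of 4918 bright named genes were lower. Among all named genes, counted with 1 probe set each, 3.46% passed, 2.29% higher and 1.17% lower, so the share of potassium channel genes was near that background. At an adjusted p of 0.10 the counts were 3 higher and 2 lower, against 4.5% and 2.88% of named genes. Kcnj8 was the only one of the 83 with a difference of at least 1.5-fold. The median difference, ILPD minus placebo on the log2 scale, was 0.01 over the potassium channel genes, 0.01 over all named genes and 0.02 over all probe sets. The groups did not overlap for 4 genes that were higher in ILPD and 2 that were lower, against a background of 8.19% and 5.83% of named genes.

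**Figure D1:**
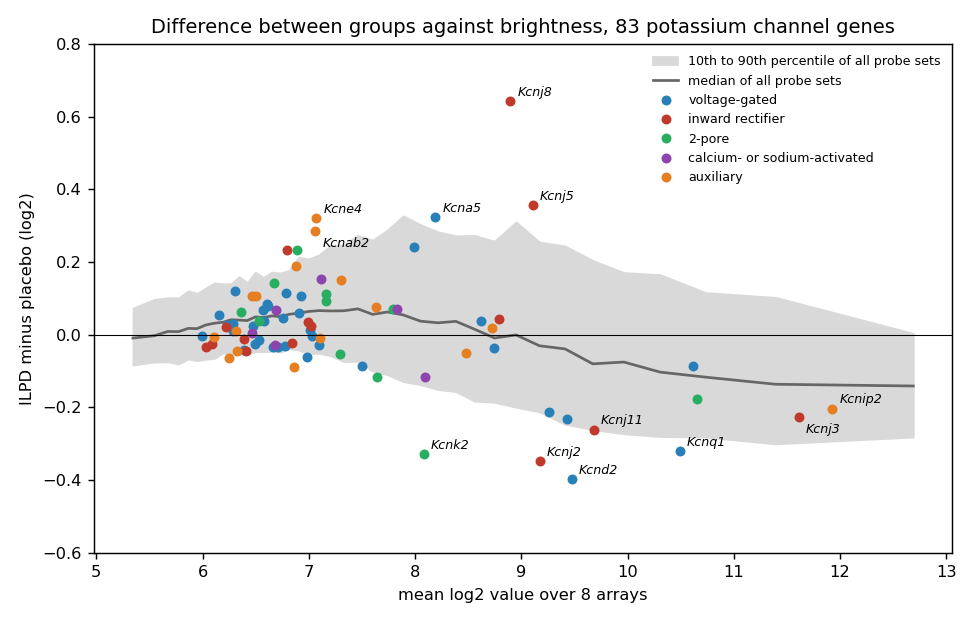
Each point is 1 of 83 potassium channel genes, with its mean log2 value over 8 arrays on the x axis and its difference, ILPD minus placebo in log2 units, on the y axis; colour gives the class, the grey line is the median and the grey band the 10th to 90th percentile of all probe sets at that brightness. Kcnj8 stands at 0.64, far above the band, while most other bright genes lie below 0, where the median of all bright probe sets lies too.

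The ATP-sensitive channels gave the largest difference. These channels consist of a pore subunit, Kcnj8 or Kcnj11, and a sulfonylurea receptor, Abcc9 or Abcc8, and they couple the energy state of a cell to its voltage. Kcnj11 is the pore known from the surface of heart muscle cells, and Kcnj8 that of vascular smooth muscle and pericytes. Kcnj8 (probe set 10866718) had log2 values of 9.07, 9.13, 8.98, 9.43 and 9.08 in the 5 ILPD arrays and of 8.63, 8.42 and 8.44 in the 3 placebo arrays. All 5 ILPD arrays lay above all 3 placebo arrays, with ILPD array 4 the highest. The means were 9.14 ± 0.17 (SD, n = 5) in ILPD and 8.50 ± 0.12 (SD, n = 3) in placebo, a rise of 0.64 (SE 0.10, 95% interval 0.42 to 0.86, limma adjusted p = 0.0120), or 1.56-fold. The call was lost without placebo array 2 (adjusted p = 0.0632) or placebo array 3 (0.0605), and held in the other 13 of 15 alternatives, both further normalizations among them.

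Kcnj11 (probe set 10722005) went the other way without passing the test. Its log2 values were 9.67, 9.69, 9.42, 9.47 and 9.67 in ILPD and 9.84, 9.83 and 9.87 in placebo. Every ILPD array lay below every placebo array, and the placebo arrays were close together. The difference was -0.26 (SE 0.07, 95% interval -0.43 to -0.09, limma adjusted p = 0.0991), with adjusted p from 0.0848 to 0.224 over the alternatives. Of the receptor genes, Abcc8 gave a like difference of -0.28 (SE 0.07, adjusted p = 0.0808), also with no overlap, and passed in 1 of 15 alternatives (lowest adjusted p 0.0201). Abcc9, the other receptor gene, was bright and differed by -0.05 (95% interval -0.25 to 0.15, adjusted p = 0.823). Which receptor joined which pore in these samples was not measured. In the RefSeq gene order of assembly GRCr8, Kcnj8 and Abcc9 are direct neighbours on chromosome 4, and Kcnj11 and Abcc8 on chromosome 1. The neighbours on chromosome 1 thus had differences of like size, while those on chromosome 4 had not; the difference within either pair was not tested.

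The promoters of the neighbours Kcnj8 and Abcc9, and of Kcnab2, are printed because Kcnj8 and Kcnab2 are the genes that passed and Abcc9 is the neighbour of Kcnj8 that did not pass. They are RefSeq's on build GRCr8, from 250 bases before to 50 after the annotated start, 5′ to 3′, and lie at chr4:177246499-177246798, chr4:177386299-177386598 and chr5:168270711-168271010, all on the minus strand. Capitals mark a match to a motif on either strand.
Kcnj8: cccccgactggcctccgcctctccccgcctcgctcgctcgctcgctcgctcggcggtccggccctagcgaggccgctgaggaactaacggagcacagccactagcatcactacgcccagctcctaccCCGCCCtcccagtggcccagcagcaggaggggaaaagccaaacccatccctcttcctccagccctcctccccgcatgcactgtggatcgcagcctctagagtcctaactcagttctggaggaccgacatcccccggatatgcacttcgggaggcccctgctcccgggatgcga
Abcc9: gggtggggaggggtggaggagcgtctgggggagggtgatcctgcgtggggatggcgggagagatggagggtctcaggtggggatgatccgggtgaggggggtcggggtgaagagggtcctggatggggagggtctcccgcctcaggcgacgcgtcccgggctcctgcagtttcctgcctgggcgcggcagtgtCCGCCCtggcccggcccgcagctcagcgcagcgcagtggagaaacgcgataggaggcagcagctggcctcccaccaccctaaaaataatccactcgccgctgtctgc
Kcnab2: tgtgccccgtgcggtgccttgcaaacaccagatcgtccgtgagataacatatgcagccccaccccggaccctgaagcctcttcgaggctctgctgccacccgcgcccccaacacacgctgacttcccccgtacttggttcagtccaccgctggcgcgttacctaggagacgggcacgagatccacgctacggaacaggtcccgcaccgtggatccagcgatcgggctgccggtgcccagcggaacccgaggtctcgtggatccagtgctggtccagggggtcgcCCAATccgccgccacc
The windows of Kcnj8 and Abcc9 each held 1 GC box (GGGCGG, read on the other strand as CCGCCC), and that of Kcnab2 held 1 CCAAT box. No match was found in the 3 windows to a TATA box (TATAAA), the core of a hypoxia element (ACGTG), a heat shock element (GAANNTTC), a STAT element (TTCNNNGAA) or the core of a cyclic AMP element, CRE (TGACG). The window of Kcne4, a gene described below whose groups did not overlap, was searched too and is not printed; it held 1 GC box, 1 CRE core and 2 overlapping hypoxia element cores on opposite strands. The 2 hypoxia cores were 1 stretch, CACGTG, read on both strands. Hypoxia cores stood in 19.3% of all promoters and CRE cores in 21.2%, against 12.5% and 20.3% of 64 potassium channel promoters. Both strands were searched for each of the 7 motifs, and overlaps between motifs were allowed. Among all 33469 promoters of the table, 33.1% held a GC box and 37.5% a CCAAT box. Of 64 promoters of 58 potassium channel genes, 32 held a GC box and 29.7% a CCAAT box, while 3.12% held a TATA box against 14.2% of all. These promoters had a median GC content of 60.5%, and 67.0% for 9 bright genes, against 51.7% over all promoters. A match is a description of letters and does not mark a site in use.

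**Figure D2:**
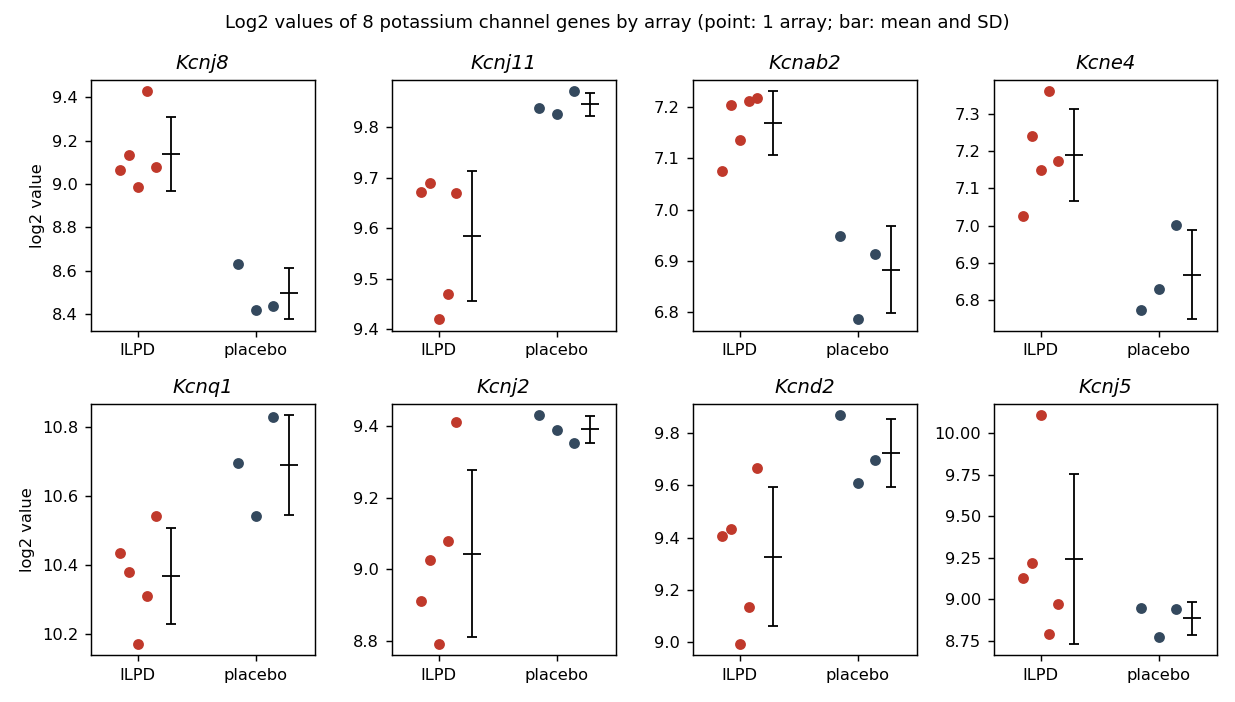
Log2 values (y axis) of 8 potassium channel genes in ILPD and placebo, 1 point per array, with the mean and SD beside them; each panel has its own scale, which does not start at 0. Kcnj8, Kcnab2 and Kcne4 lie higher in all 5 ILPD arrays than in all 3 placebo arrays, Kcnj11 lies lower in all, and the groups overlap for Kcnq1, Kcnj2, Kcnd2 and Kcnj5.

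Since Kcnj8 is known from vessel walls, the markers of those cells are given beside it. Of 10 measured markers of smooth muscle and pericytes, Abcc9 among them, 0 passed the test and 8 had a positive difference. Their mean log2 level ran from 9.67 to 9.86 in ILPD and from 9.57 to 9.65 in placebo, so the ranges did not overlap, with a median difference of 0.15. Rgs5, a marker of pericytes, differed by -0.04 (limma adjusted p = 0.812), and Pdgfrb, their growth factor receptor, by 0.50 (0.117). Of 8 measured endothelial markers, 1 rose, Egfl7 (0.60, adjusted p = 0.0282), and their mean level ran from 10.34 to 10.51 in ILPD and from 10.19 to 10.29 in placebo. The part of these markers in the rise of Kcnj8 was not tested.

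Subunits that build the same kind of channel were set against each other within each array, which shows whether they changed unequally. The 4 pairs were taken with results of these data known, and 5 against 3 arrays allow no two-sided exact p below 0.0357. Relative to Kcnj11, the log2 ratio of Kcnj8 was higher by 0.90 in ILPD than in placebo (exact permutation test, p = 0.0357, adjusted over 4 pairs 0.0714), and higher in all 5 ILPD arrays than in all 3 placebo arrays. Kcnj8 alone already lay higher, and Kcnj11 alone lower, in every ILPD array than in every placebo array. This separation and its p were thus fixed once the pair was chosen and add no further support. Relative to Kcnj12, the log2 ratio of Kcnj2 was lower by 0.39 (ILPD minus placebo -0.39, exact permutation p = 0.0357, adjusted 0.0714). That p rests on 2 nearly level arrays, ILPD array 5 with a ratio of 0.536 and placebo array 3 with 0.545. Relative to Kcnj3, Kcnj5 differed by 0.58 (exact permutation p = 0.0714, adjusted 0.0952), and relative to Kcnd3, Kcnd2 differed by -0.36 (exact permutation p = 0.179, adjusted 0.179). None of the 4 passed after adjustment, but with these numbers a pair could pass only if at least 3 of the 4 reached the smallest p together, so this says little about the pairs. Over the alternatives the change of Kcnj8 relative to Kcnj11 ran from 0.80 to 0.97.

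**Figure D3:**
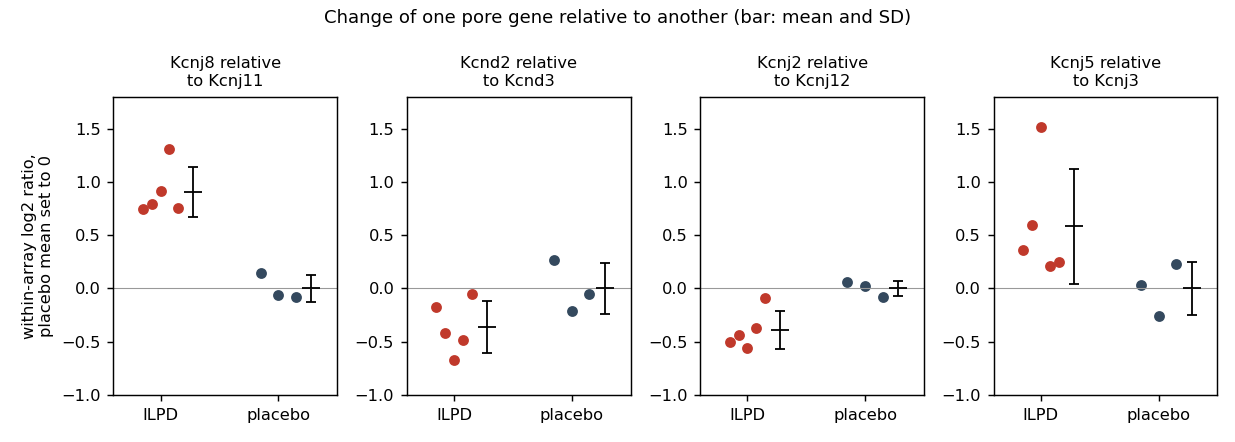
Within-array log2 ratio (y axis, with the placebo mean set to 0) of 4 pairs of pore subunits in ILPD and placebo, 1 point per array, with mean and SD. The ratio of Kcnj8 to Kcnj11 is higher by 0.90 in ILPD with no overlap, which follows from the separation of each gene alone. The ratio of Kcnj2 to Kcnj12 is lower by 0.39 with no overlap, but ILPD array 5 and placebo array 3 are nearly level. The other pairs overlap.

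Other inward rectifiers did not pass. Kcnj2 and Kcnj12 form the channels that hold the resting voltage of ventricular muscle. Kcnj2 had log2 values of 8.91, 9.03, 8.79, 9.08 and 9.41 in ILPD and of 9.43, 9.39 and 9.35 in placebo. ILPD array 5 lay among the placebo arrays and the other 4 ILPD arrays lay below them. The difference was -0.35 (SE 0.12, limma adjusted p = 0.154), and without ILPD array 5 it was -0.44 and passed (adjusted p = 0.0217). Kcnj12 differed by 0.04 (95% interval -0.08 to 0.16, adjusted p = 0.734), and Kcnj4, a further member of that branch, by 0.02 (adjusted p = 0.848).

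Kcnj3 and Kcnj5 form the channel opened by acetylcholine, best known from the atria and the sinus node. Kcnj5 had log2 values of 9.12, 9.22, 10.11, 8.79 and 8.97 in ILPD and of 8.95, 8.77 and 8.94 in placebo. ILPD array 3 stood above all other arrays, and the groups overlapped. The difference was 0.36 (SE 0.24, 95% interval -0.18 to 0.90, limma adjusted p = 0.489). In ILPD array 3 the atrial gene Myl7 had a value of 11.04, inside the range of the other arrays. The atrial markers Sln (9.15), Pam (13.17) and Nr2f2 (8.26) lay inside it too, and Nr2f1 (7.15) was the lowest of the 8 arrays. The part of atrial tissue in the Kcnj5 value of that array was not tested. Kcnj3 differed by -0.23 (adjusted p = 0.171). Kcnj15, a gene known from kidney and other epithelia, had no overlap between groups, with a difference of 0.23 at a mean of 6.88 in ILPD and 6.65 in placebo (adjusted p = 0.194).

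Of the 35 voltage-gated pore genes 0 passed, with 18 positive and 17 negative differences and a median of 0.01. At an unadjusted p under 0.05, 0 were higher and 3 lower, all of them bright: Kcnq1, Kcnd2 and Kcnh2. The background at that threshold was 11.5% higher and 9.39% lower over all named genes, and 1138 of 4918 bright named genes were lower at it. Kcnq1, the pore of the slow delayed rectifier, had log2 values of 10.44, 10.38, 10.17, 10.31 and 10.54 in ILPD and of 10.70, 10.54 and 10.83 in placebo. The highest ILPD array touched the lowest placebo array. The difference was -0.32 (SE 0.09, 95% interval -0.53 to -0.12, limma adjusted p = 0.0971).

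Kcnd2 and Kcnd3 are pores of the fast transient outward current, and Kcnip2 is the calcium sensor that binds them. Kcnd2 had log2 values of 9.41, 9.43, 8.99, 9.13 and 9.67 in ILPD and of 9.87, 9.61 and 9.70 in placebo, with ILPD array 5 inside the placebo range. It differed by -0.40 (SE 0.14, 95% interval -0.70 to -0.09, limma adjusted p = 0.163), the most negative difference of the 83 genes. Kcnd3 differed by -0.04 (95% interval -0.21 to 0.13, adjusted p = 0.858). Kcnip2 had 11.86, 11.90, 11.93, 11.67 and 11.88 in ILPD and 11.93, 12.16 and 12.06 in placebo. The groups did not overlap, but the highest ILPD and the lowest placebo array were nearly level. Its difference was -0.20 (SE 0.08, adjusted p = 0.193), and its other, dimmer probe set gave -0.08 (adjusted p = 0.673).

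Kcnh2, the pore of the rapid delayed rectifier, differed by -0.21 (limma adjusted p = 0.233), and 4 of 5 ILPD arrays (9.10, 9.21, 9.15 and 9.0) lay below the placebo arrays (9.39, 9.43 and 9.35), with ILPD array 5 at 9.43. Kcna2, of the slowly inactivating outward currents, differed by -0.23 (adjusted p = 0.325) and Kcng2, a silent subunit that modifies other pores, by -0.09 (0.626). Kcna5, the pore of an ultrarapid current, gave 0.32 (95% interval -0.03 to 0.68, adjusted p = 0.324) with values from 8.08 to 8.73 in ILPD and from 7.71 to 8.23 in placebo, which overlapped. Kcna4 (-0.03, adjusted p = 0.824) and Kcnc1 (-0.00, 0.985), both pores of voltage-gated channels, lay in the middle band.

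Auxiliary subunits supplied the second gene that passed. Kcnab2 (probe set 10882006), a beta subunit that binds voltage-gated pores of the Kcna group, had log2 values of 7.08, 7.20, 7.14, 7.21 and 7.22 in ILPD and of 6.95, 6.79 and 6.91 in placebo. The groups did not overlap, at a signal near the middle of the array (48.0th percentile). The rise was 0.29 (SE 0.06, 95% interval 0.15 to 0.42, limma adjusted p = 0.0391), or 1.22-fold, but the call was lost in 10 of 15 alternatives, among them without any 1 of the placebo arrays (up to 0.138) and after both normalizations (up to 0.101).

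Kcne4, a small subunit that restrains several voltage-gated pores, had 7.03, 7.24, 7.15, 7.36 and 7.17 in ILPD and 6.77, 6.83 and 7.0 in placebo. All ILPD arrays lay above all placebo arrays by a small margin. The difference of 0.32 (SE 0.08, limma adjusted p = 0.0708) passed with array weights (0.0449) and without ILPD array 1 (0.0453). Kcne2, a related subunit, differed by 0.19 (adjusted p = 0.190), and Kcne1, the partner of Kcnq1, by -0.09 (0.602). Kcnab1, a sister of Kcnab2, differed by -0.01 (95% interval -0.16 to 0.14, adjusted p = 0.967), and Kcnmb1 by 0.02 (0.942).

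Channels known from white blood cells did not pass, and their groups overlapped. Kcna3, the voltage-gated pore best known from T lymphocytes and macrophages, differed by 0.24 (95% interval -0.04 to 0.52, limma adjusted p = 0.345), with values from 7.84 to 8.39 in ILPD and from 7.70 to 7.95 in placebo. Kcnn4, a calcium-activated channel of blood and endothelial cells, differed by 0.15 (adjusted p = 0.302). Kcnab2 is widely expressed, blood cells included, so the marker lists of those cells are given beside it. Mean log2 levels of 8 T and NK cell markers ran from 7.22 to 7.28 in ILPD and from 7.03 to 7.16 in placebo, with 1 of 8 passing (Klrd1, 0.52). Those of 10 monocyte and macrophage markers ran from 9.35 to 9.78 in ILPD and from 9.01 to 9.37 in placebo (1 passed, Cx3cr1), and those of 9 neutrophil markers from 7.81 to 8.61 in ILPD and from 7.36 to 7.90 in placebo (1 passed, Mmp9). The ranges of the groups did not overlap for the T and NK cell list and overlapped for the other lists. All 8 T and NK cell markers had positive differences, with a median of 0.12. So had all 9 neutrophil markers, with a median of 0.58, and 8 of the 10 monocyte and macrophage markers, with a median of 0.19. The medians of whole arrays did not overlap between the groups either (7.16 to 7.20 in ILPD, 7.08 to 7.14 in placebo). The part of these cells in the rise of Kcnab2 was not tested.

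The 2-pore channels carry background currents that respond to acid, stretch and lipids. Of 11, 0 passed. Kcnk3, the acid-sensitive member that was bright, had 10.41, 10.68, 10.98, 10.28 and 10.60 in ILPD and 10.72, 10.92 and 10.67 in placebo. ILPD array 3 was the highest of all arrays and ILPD array 4 the lowest, and the difference was -0.18 (limma adjusted p = 0.554). Kcnk2, which opens to stretch and polyunsaturated fatty acids, had 8.20, 7.80, 7.46, 7.98 and 8.36 in ILPD and 8.30, 8.07 and 8.50 in placebo, a difference of -0.33 (95% interval -0.74 to 0.08, adjusted p = 0.386) with overlapping groups. Kcnk1 differed by 0.23 (adjusted p = 0.165). Among the 6 calcium- or sodium-activated genes 0 passed; Kcnn3, of the small calcium-activated channels, differed by -0.12 (0.548) and Kcnma1 by 0.07 (0.655).

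Most bright genes had negative differences, as did bright probe sets in general. The difference was negative for 11 of the 15 bright genes, with a median of -0.20, against 68.5% negative and a median of -0.08 over all bright named genes. By limma's unadjusted p under 0.05, 7 of the 15 were lower and 1 higher, against 1138 and 459 of 4918 bright named genes. After quantile normalization 12 of the 15 were negative with a median of -0.09, and after cyclic loess 10 with a median of -0.08, while the median of all bright probe sets moved to -0.02 and to -0.00. ILPD array 5 was the highest of the 5 ILPD arrays for 7 of the 15 genes and the lowest for 0, and in it 3 of the 15 lay below all placebo arrays, against 9 to 11 in each other ILPD array. Kcnj11 and Kcnip2 were the 2 of 15 that lay lower without overlap, against 14.2% of bright named genes. The 10 ventricular muscle markers all had negative differences as well, with 1 fall (Tnnc1, -0.37, limma adjusted p = 0.0195) and mean log2 levels from 13.22 to 13.39 in ILPD and from 13.42 to 13.53 in placebo; their part in the differences of the channel genes was not tested.

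**Figure D4:**
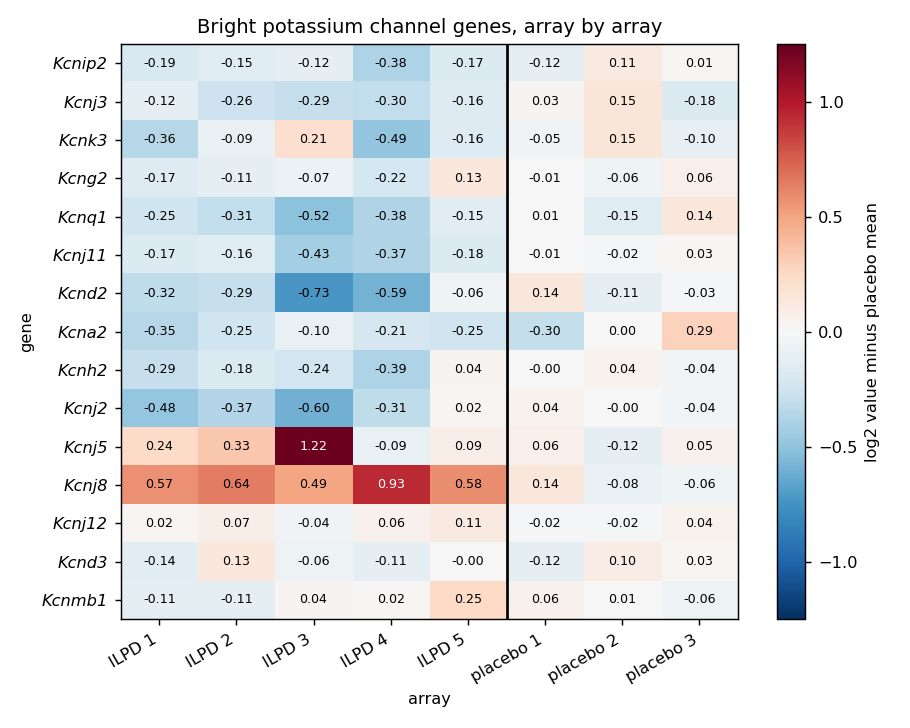
Log2 value minus the placebo mean (colour and printed number) of the 15 bright potassium channel genes in rows, for the 5 ILPD arrays left and the 3 placebo arrays right of the black line. Kcnj8 is high in all ILPD arrays, Kcnj5 stands out in ILPD array 3, and Kcnj2, Kcnd2 and Kcnh2 are low in ILPD arrays 1 to 4 and near 0 in ILPD array 5.

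The other 52 genes, outside the naming rule, had differences from -0.12 to 0.15, and the lowest adjusted p among them in limma was 0.304 (Kcnk9, an acid-sensitive 2-pore channel, 0.14). In the dim group, differences ran from -0.06 to 0.14 and 0 of 34 had an unadjusted p under 0.05.

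A list of 34 genes that bind, anchor or complement potassium channels was looked at as well. Of 29 measured, 1 rose and 1 fell, against 2.29% and 1.17% of all named genes. Differences were positive for 10 and negative for 19, with a median of -0.04. Slc12a2, the cotransporter that brings sodium, potassium and chloride into cells, had log2 values of 8.82, 9.21, 9.01, 9.11 and 9.01 in ILPD and of 8.71, 8.48 and 8.53 in placebo, and rose by 0.46 (SE 0.09, limma adjusted p = 0.0311). Amigo1, an adhesion protein that accompanies a voltage-gated pore of the Kcnb group, had 8.63, 8.77, 8.46, 8.47 and 8.74 in ILPD and 9.0, 9.09 and 8.99 in placebo, and fell by 0.41 (SE 0.08, adjusted p = 0.0347). Neither had overlapping groups, and each call held in 9 of 15 alternatives, with adjusted p of up to 0.140 and 0.126.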

How the data were processed

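Total RNA was labelled with biotin and hybridised to Affymetrix arrays, per the labels' protocols. The authors deposited 1 log2 value per probe set and array; the sources used here do not give their summary and normalization steps, and the submitters' processing notes name R 2.14.2. The log2 scale was settled from the range of the values. Names came from the platform annotation, and all 83 genes matched a RefSeq table (GRCr8) by gene ID under the same symbol. ILPD was compared with placebo with lmFit and eBayes of limma 3.58.1 (R 4.3.3, two-sided, no covariates). P-values of all 28826 probe sets were adjusted together by Benjamini-Hochberg, with a threshold of 0.05; the test was checked on simulated data. Pairs used an exact permutation test (scipy 1.17.1). Gene naming took the called genes, the 10 largest differences each way, the bright genes, and 26 measured channels of prior interest. The genes, pairs and lists were chosen with earlier results of these data known. The alternatives were an intensity trend with robust prior, 2 normalizations, a filter on the dimmest 40%, array weights, the replicate block, averaging probe sets per gene, other thresholds, and leaving out each array in turn. Of the 83 genes, 49 passed that filter.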

Additional observations from a re-analysis of the deposited data

Results flagged for a closer look

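In ILPD array 4, Kcnip2 had a log2 value of 11.67, apart from the other 4 ILPD arrays, which lay between 11.86 and 11.93. Its gap to the nearest of them was 0.744 of the group's range. Among the ILPD groups of the 35 genes looked at, it was the 1 sample that stood apart by this measure, and chance flags about 1 in 20 groups. Placebo, with 3 arrays, is not covered by that statement. Kcnj12 had placebo values of 8.743, 8.742 and 8.809, where array 3 stood apart by a larger share of the range.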

How the results depend on the processing

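The count of potassium channel genes called higher was 2. It was 1 after quantile normalization, after cyclic loess, with the replicate block and with a 1.5-fold minimum, and ran from 0 to 3 when single arrays were left out: 0 without placebo array 2 or 3, 1 without placebo array 1 or ILPD array 2, 3, 4 or 5, and 3 without ILPD array 1. With array weights it was 3, and at an adjusted p of 0.10 it was 3. The count called lower was 0; it was 1 with the replicate block (Kcnj2, -0.48, limma adjusted p = 0.0430), 2 at an adjusted p of 0.10 (Kcnq1 and Kcnj11), and 0 to 1 when single arrays were left out, with 1 without ILPD array 5. The median difference of the genes, 0.01, was -0.0365 after quantile normalization and -0.0272 after cyclic loess, which also moved the median of all probe sets from 0.02 to -0.01 and to -0.00; without single arrays it ran from -0.01 to 0.04. Over 464 recalculations of 31 named genes, 448 kept their side of the threshold, 12 lost it and 4 gained it. Only 2 of the 31 genes were called at first, so most of the 448 were uncalled genes that stayed uncalled. Of 15 recalculations each, the call held in 13 for Kcnj8 and in 5 for Kcnab2. Signs changed in 19 of the 464, in 6 genes with differences of at most 0.09 in size, none of them called. The causes were not tested. Same-numbered samples had deviations from their group means correlated at 0.221, -0.064 and -0.098. Differently numbered ones ran from -0.165 to 0.247. The labels state no pairing, and 3 pairs cannot settle whether there was one, so the block is no evidence on effect size.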
